A study of Mus musculus with 2 samples.

Results

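The genes described here are the 8 members of a list of calcium and creatine futile cycling genes, namely Atp2a1, Atp2a2, Atp2a3, Ryr2, Ckb, Gatm, Slc6a8 and Alpl. They were taken by name, and 8 of 8 have 1 row each among the 31053 genes of the deposited matrices. The question was which cell classes of iWAT (inguinal white adipose tissue, which lies under the skin) carry transcripts of genes for heat production that does not use Ucp1, the mitochondrial uncoupling protein of thermogenic adipocytes.

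Single-nucleus RNA-Seq was done on iWAT of male mice on a C57BL/6 background fed a Western diet. There were 2 libraries, 1 with the genotype Lexis WT and 1 with the genotype Lexis KO, each from the pooled tissue of 3 mice. The gene Lexis, which makes a long noncoding RNA, was per the study's methods deleted in adipose tissue with a floxed allele and Adipoq-cre, a Cre driven by the promoter of an adipocyte gene, with littermates as controls. Per the study's methods the tissue was taken without the lymph node, and the labels give no age for these mice. With 1 pooled library per genotype no test between genotypes was possible, so every interval below is a 95% interval for counting error alone and says nothing of the spread between mice.

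For 2 of 2 libraries the file names give the genotype that the labels do not, and Lexis, which could have settled it, was not analysed here. Each library is therefore named by its label, WT or KO, and every direction below holds for the labels. After filtering, the library labelled WT held 3503 nuclei with a median of 1195 UMIs (unique molecular identifiers, each marking a captured RNA molecule), against 2852 nuclei labelled KO with a median of 3879. The 2 libraries shared 10 cell barcodes among the nuclei kept. Of 18 clusters 2 could not be named from marker genes, and most clusters held nuclei of mainly 1 library. The named classes were adipocytes (418 nuclei labelled WT and 895 labelled KO), adipose stem and progenitor cells (ASPC, 299 and 787), myeloid cells (419 and 813), lymphocytes (2013 and 103, which is 57.5% and 3.61% of the nuclei), endothelial cells (93 and 122), mural cells (10 and 44) and skeletal myocytes (0 and 52). The 0 myocytes of 3503 nuclei allow a share of up to 0.0856%. Classes with under 30 nuclei in a library were left out of comparisons between classes. Markers of 1 class were also found in others, and whether they came from free RNA or doublets was not tested. The 10 adipocyte markers summed to 595 CPM (the UMIs of a gene for each 1000000 UMIs of the class) in lymphocytes labelled WT. They summed to 1074 CPM in lymphocytes labelled KO, against 8947 and 10486 CPM in adipocytes. Labelled KO they reached 2763 CPM in endothelial cells and 2354 CPM in mural cells. The 10 ASPC markers summed to 3460 CPM in mural cells labelled KO, against 26963 CPM in ASPC.

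In calcium futile cycling, SERCA pumps use ATP to move calcium into the endoplasmic or sarcoplasmic reticulum, and ryanodine receptors or inositol trisphosphate receptors let it out again, so that ATP is spent as heat. In creatine futile cycling, creatine kinase makes phosphocreatine, and a phosphatase removes the phosphate so that creatine can be charged again. Atp2a1, Atp2a2 and Atp2a3 encode the pumps SERCA1, SERCA2 and SERCA3, and Ryr2 encodes the ryanodine receptor best known from heart muscle. Ckb encodes the brain-type creatine kinase, Gatm the enzyme of the initial step of creatine synthesis, Slc6a8 the creatine transporter of the plasma membrane, and Alpl the tissue-nonspecific alkaline phosphatase. Both routes have been described in adipocytes as ways to make heat without Ucp1.

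Promoter windows from 250 bases before to 50 bases after the annotated start were taken from RefSeq (build GRCm38.p6) and matched 6 of 8 members, leaving out Atp2a2 and Slc6a8. The windows of Atp2a1, Atp2a3 and Ryr2 are shown because these members had their highest levels in myocytes, lymphocytes and adipocytes. Capitals mark letters that match CAGCTG, an E-box, or AGGTCA, a nuclear receptor half-site, on either strand, and CTTTGA, a TCF core, was also searched. The windows lie at chr7:126463024-126463323 on the minus strand for Atp2a1, at chr11:72960919-72961218 on the plus strand for Atp2a3, and at chr13:12106896-12107195 on the minus strand for Ryr2, each written 5′ to 3′ in the direction of the gene. The gene positions given with the members below are of the same build.
Atp2a1: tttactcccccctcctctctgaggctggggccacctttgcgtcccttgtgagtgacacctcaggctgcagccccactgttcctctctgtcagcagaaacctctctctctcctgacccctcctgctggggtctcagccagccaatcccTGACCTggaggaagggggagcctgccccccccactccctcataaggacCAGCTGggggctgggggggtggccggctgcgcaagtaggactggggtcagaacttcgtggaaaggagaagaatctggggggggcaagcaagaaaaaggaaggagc
Atp2a3: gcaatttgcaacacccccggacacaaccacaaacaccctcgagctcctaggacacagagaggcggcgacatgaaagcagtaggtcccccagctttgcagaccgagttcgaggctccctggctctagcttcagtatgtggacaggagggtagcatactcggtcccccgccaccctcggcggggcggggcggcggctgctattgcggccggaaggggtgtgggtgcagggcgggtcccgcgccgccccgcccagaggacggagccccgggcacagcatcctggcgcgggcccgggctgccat
Ryr2: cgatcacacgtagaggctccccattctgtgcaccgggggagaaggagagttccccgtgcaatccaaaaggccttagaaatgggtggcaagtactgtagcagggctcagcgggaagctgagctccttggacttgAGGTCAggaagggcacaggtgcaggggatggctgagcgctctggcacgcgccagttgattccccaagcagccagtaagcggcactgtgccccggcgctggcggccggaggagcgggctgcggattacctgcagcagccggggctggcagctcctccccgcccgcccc
The Atp2a1 window held 1 match to CAGCTG, starting at position -55 from the annotated start, and 1 match to AGGTCA at -103. The annotated start used for the Atp2a1 window lies inside the gene position given for Atp2a1 below, and not at its end. The Ryr2 window held 1 match to AGGTCA at -117, and the Atp2a3 window held no match to any of these motifs. Of 32817 mouse promoter windows of this length, 16.3% held CAGCTG, 16.3% held AGGTCA and 16% held CTTTGA, so a match describes these letters and not a bound site.

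Of the 8 members, Ryr2 was the 1 whose level was highest in adipocytes, and it was so in both libraries. Among all genes with at least 50 UMIs, adipocytes were the highest class for 14.5% of 10663 genes in the library labelled WT and 13.5% of 13363 genes in the library labelled KO. Atp2a1 was highest in myocytes where that class was present, Atp2a3 in lymphocytes, Ckb in ASPC and Gatm in myeloid cells. The lead of Gatm in myeloid cells over the next class stayed within counting error in both libraries, at 5.54 (0.913 to 227) and 3.08 (0.822 to 25.9), and labelled KO lymphocytes led at a minimum of 1000 genes. Ckb labelled WT was highest in myeloid cells with each library clustered on its own. Atp2a2 was found in every class, and Slc6a8 and Alpl were too rare for a firm order of classes. Counted over the 8 members, the highest class labelled WT was myeloid for 3 (background 20.2%), lymphocyte for 2 (30.7%), and adipocyte, ASPC (11.2%) and endothelial (23.4%) for 1 each. The count for myeloid includes Atp2a2, at 165 CPM there and 163 CPM in ASPC, a ratio of 1.01 within counting error, and it left that class in 7 of 9 alternatives. Labelled KO it was mural for 2 (14%), myocyte for 2 (11.2%), and adipocyte, ASPC (10%), myeloid (15.3%) and lymphocyte (22.4%) for 1 each. At an mt- limit of 1% Atp2a2 moved from mural to myeloid, Alpl from mural to ASPC and Atp2a3 from lymphocyte to adipocyte. The background shares in this paragraph cover only genes with at least 50 UMIs. Atp2a1, Gatm, Slc6a8 and Alpl had fewer labelled WT, and Alpl had fewer labelled KO. The counts of members are therefore not set against these shares.

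**Figure D1:**
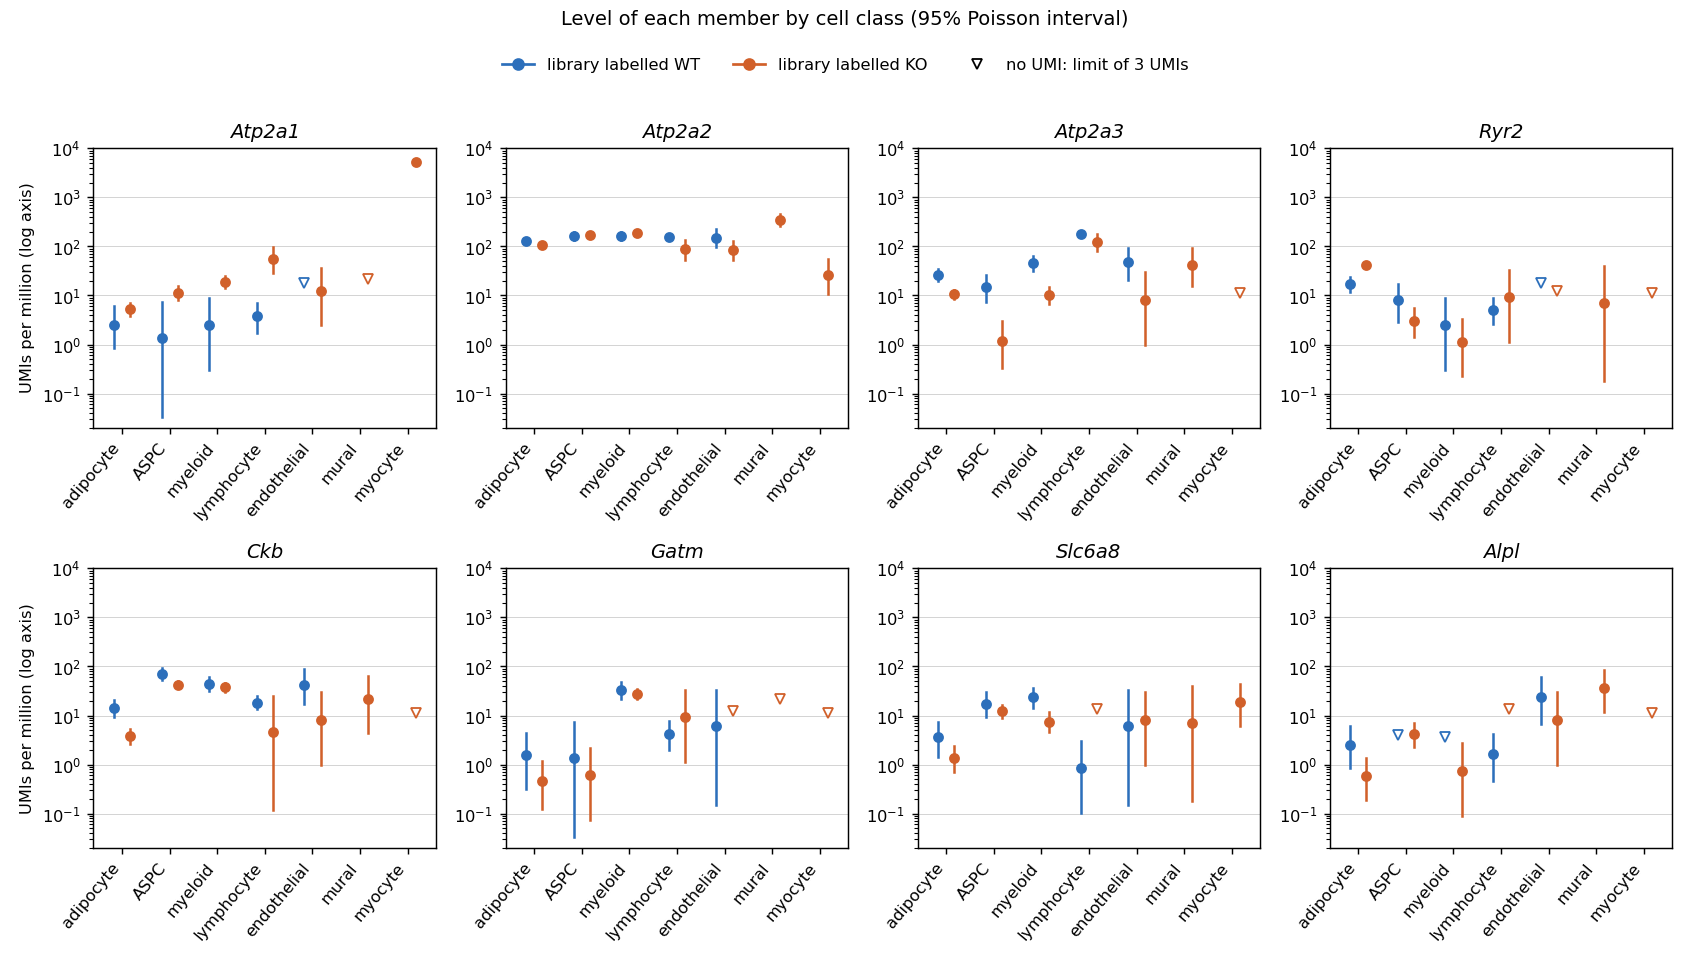
Each panel plots the level of 1 member in CPM, on a log axis, by cell class. Points are summed UMIs per class and library, lines are 95% Poisson intervals, open triangles are the limit of 3 UMIs for a class without a UMI, and classes with under 30 nuclei in a library are not drawn. Atp2a1 stands at 5391 CPM in myocytes labelled KO, and Ryr2 is highest in adipocytes at 17.4 and 42.2 CPM.

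Atp2a1 (chr7:126445858-126463103), the pump of fast skeletal muscle, was found mainly in myocyte nuclei. A UMI was present in 52 of 52 myocytes of the library labelled KO, which held 1426 UMIs and a level of 5391 CPM (5114 to 5678). Myocytes gave 90.5% of the 1576 Atp2a1 UMIs in the kept nuclei of that library, while they gave 1.69% of all UMIs. The next class, lymphocytes, had 54.9 CPM (28.3 to 95.8) from 12 UMIs, 9 of them in 1 nucleus. Myeloid cells had 18.7 CPM (13.9 to 24.7), ASPC 11.4 CPM (8.09 to 15.7) and adipocytes 5.32 CPM (3.89 to 7.09, 46 UMIs). The adipocyte level was thus below the level in myeloid cells, ASPC and lymphocytes of the same library. Acta1, the skeletal muscle actin, was at 1357 CPM in myocytes, 201 CPM in lymphocytes, 53.6 CPM in myeloid cells, 46.9 CPM in ASPC and 31.9 CPM in adipocytes of the same library. The 10 myocyte markers together summed to 37462 CPM in myocytes, 498 CPM in lymphocytes, 147 CPM in myeloid cells, 133 CPM in ASPC and 80.6 CPM in adipocytes, and their part in the Atp2a1 levels was not tested. In the library labelled WT, Atp2a1 had 17 UMIs in the named classes, 9 of them in lymphocytes and 5 in adipocytes, for 3.76 CPM (1.72 to 7.14) and 2.56 CPM (0.831 to 5.97). The myocyte markers summed to 25.1 CPM in adipocytes of that library, with 3 of 10 found, Ttn at 35 UMIs, Neb at 13 and Mybpc1 at 1, while Acta1 and the other markers were at 0. With each nucleus thinned to 1000 UMIs, the expected share of adipocytes with an Atp2a1 UMI was 0.219% labelled WT and 0.574% labelled KO. The same share in lymphocytes was 0.467% and 1.62%, the latter from 4 positive nuclei, so the adipocyte share was not above it and no expression is read from it.

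Atp2a2 (chr5:122453513-122502225), the SERCA isoform found in most tissues, was present in every class, and adipocytes were not its leading class. Labelled WT, its level was 130.1 CPM (115 to 147) in adipocytes, 151 CPM (97.6 to 223) in endothelial cells, 155 CPM (139 to 171) in lymphocytes, 163 CPM (135 to 195) in ASPC and 165 CPM (138 to 195) in myeloid cells. These levels lie close together. The adipocyte level was 0.798 times that of ASPC (0.640 to 0.998), 0.790 times that of myeloid cells (0.638 to 0.982) and 0.841 times that of lymphocytes (0.714 to 0.990), while the ratio to endothelial cells of 0.862 (0.571 to 1.36) did not differ from 1 beyond counting error. Labelled KO, the classes spread further apart. Mural cells, the contractile cells of vessel walls, had 349.6 CPM (259 to 462) from 44 nuclei, 1.89 times (1.38 to 2.54) the 185 CPM (169 to 202) of myeloid cells. ASPC followed at 171 CPM (157 to 186) and adipocytes at 109 CPM (102 to 116, 939 UMIs). Lymphocytes at 86.9 CPM (52.3 to 136) and endothelial cells at 85.7 CPM (53.1 to 131) did not differ from adipocytes beyond counting error. Myocytes, which carried Atp2a1, had the lowest Atp2a2 level, 26.5 CPM (10.6 to 54.5) from 7 UMIs.

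Atp2a3 (chr11:72961169-72993043), a SERCA isoform best known from blood cells and other non-muscle cells, was highest in lymphocytes. The level there was 182 CPM (165 to 200) from 435 UMIs in the library labelled WT and 123 CPM (81.3 to 180) from 27 UMIs in the library labelled KO. The next class had 48.3 CPM (20.8 to 95.1, endothelial cells, 8 UMIs) labelled WT and 42.8 CPM (15.7 to 93.2, mural cells, 6 UMIs) labelled KO, and lymphocytes stood 3.77 times (1.89 to 8.78) and 2.88 times (1.17 to 8.54) above them. Adipocytes had 26.6 CPM (19.9 to 34.9) from 52 UMIs labelled WT and 10.7 CPM (8.67 to 13.2) from 93 UMIs labelled KO, or 0.147 times (0.108 to 0.196) and 0.0871 times (0.0562 to 0.139) the lymphocyte level. The adipocyte level labelled KO was 8.93 times (3.37 to 33.5) that of ASPC, which had 4 UMIs, and 1.06 times (0.686 to 1.70) that of myeloid cells. The 12 lymphocyte markers summed to 17.6 CPM in those adipocytes, 8.12 CPM in ASPC and 384 CPM in myeloid cells. Labelled WT, the list stood at 312 CPM in adipocytes and 5005 CPM in lymphocytes. Its part in the adipocyte levels was not tested in either library.

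Ryr2 (chr13:11553099-12106945) was the member with its highest level in adipocytes. Adipocytes labelled WT had 34 UMIs and 17.4 CPM (12.1 to 24.3), ASPC 8.02 CPM (2.94 to 17.4, 6 UMIs), lymphocytes 5.01 CPM (2.59 to 8.76, 12 UMIs) and myeloid cells 2.48 CPM (0.300 to 8.94, 2 UMIs). Adipocytes were 3.47 times (1.75 to 7.37) above lymphocytes, and the ratio to ASPC of 2.17 (0.901 to 6.33) stayed within counting error. Adipocytes labelled KO had 365 UMIs and 42.2 CPM (38.0 to 46.7), ASPC 3.01 CPM (1.44 to 5.53, 10 UMIs), lymphocytes 9.14 CPM (1.11 to 33.0, 2 UMIs) and myeloid cells 1.12 CPM (0.232 to 3.29, 3 UMIs). Adipocytes gave 95.8% of the 381 Ryr2 UMIs in that library and 55.4% of all UMIs. Endothelial cells had no Ryr2 UMI in either library, which allows up to 18.1 CPM labelled WT and 12.2 CPM labelled KO, and the 52 myocytes had none, which allows up to 11.3 CPM. The Ryr2 UMIs came from a minority of adipocytes, 30 of 418 nuclei labelled WT (7.18%, 4.89 to 10.1) and 134 of 895 labelled KO (14.97%, 12.7 to 17.5). They were uneven among the positive nuclei labelled KO, where 1 nucleus held 26 UMIs and the leading 3 nuclei held 55. At a finer clustering resolution of 1.0 the adipocytes labelled KO fell into 562 nuclei with 47.4 CPM of Ryr2 (40.8 to 54.6) and 328 nuclei with 37.8 CPM (32.4 to 43.8), with medians of 6516 and 12377 UMIs. With nuclei thinned to 1000 UMIs the expected share with a Ryr2 UMI was 2.29% of adipocytes labelled WT and 3.05% of those labelled KO. In lymphocytes it was 0.359% and 0.783%, with unthinned medians of 999 and 2077 UMIs against 3652 and 7852 in adipocytes.

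Ckb (chr12:111669355-111672338), which makes phosphocreatine from creatine, had its highest levels in ASPC and myeloid cells. They gave 26.9% and 18.3% of its UMIs labelled WT, where lymphocytes gave 22.3%, and 48.6% and 34.2% labelled KO. It stood labelled WT at 70.8 CPM (53.0 to 92.6, 53 UMIs) in ASPC, 44.6 CPM (31.2 to 61.7) in myeloid cells, 42.2 CPM (16.98 to 87.0) in endothelial cells, 18.4 CPM (13.4 to 24.7) in lymphocytes and 14.3 CPM (9.53 to 20.7, 28 UMIs) in adipocytes. ASPC were 1.59 times (1.02 to 2.50) above myeloid cells, and adipocytes did not differ from lymphocytes beyond counting error. ASPC labelled KO had 42.7 CPM (36.0 to 50.4, 142 UMIs) and myeloid cells 37.5 CPM (30.5 to 45.6), a ratio of 1.14 (0.876 to 1.49) within counting error. The clusters of these classes differed. Myeloid cells labelled KO had 70.2 CPM (53.4 to 90.5) in cluster 9 (244 nuclei) and 21.3 CPM (14.9 to 29.5) in cluster 3 (526 nuclei). ASPC labelled KO had 55.8 CPM (43.5 to 70.7) in cluster 6 and 33.5 CPM (26.0 to 42.5) in cluster 5. Adipocytes had 3.81 CPM (2.63 to 5.36, 33 UMIs), and myocytes had no Ckb UMI, which allows up to 11.3 CPM. The adipocyte level was 0.202 times (0.123 to 0.326) that of ASPC labelled WT and 0.0893 times (0.0592 to 0.131) that of ASPC labelled KO. The 10 ASPC markers summed to 1203 CPM in adipocytes labelled WT and 497 CPM in adipocytes labelled KO, against 24629 and 26963 CPM in ASPC, and their part in the adipocyte level of Ckb was not tested. The expected share of adipocytes with a Ckb UMI at 1000 UMIs was 0.880% labelled WT and 0.479% labelled KO. This was below the 1.69% of lymphocytes labelled WT and near the 0.357% of lymphocytes labelled KO, the latter from 1 UMI.

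Gatm (chr2:122594473-122611277), which makes guanidinoacetate for creatine synthesis, was found mainly in myeloid cells in both libraries. Myeloid cells held 27 of the 42 UMIs in compared classes labelled WT (33.4 CPM, 22.0 to 48.6) and 75 of the 83 labelled KO (28.1 CPM, 22.1 to 35.2). Labelled KO, myeloid cluster 3 had 34.9 CPM (26.6 to 45.0, 59 UMIs) and myeloid cluster 9 had 9.52 CPM (4.11 to 18.8, 8 UMIs). Adipocytes held 3 UMIs labelled WT (1.54 CPM, 0.317 to 4.49) and 4 labelled KO (0.462 CPM, 0.126 to 1.18), which is 0.0460 times (0.00892 to 0.149) and 0.0164 times (0.00437 to 0.0439) the myeloid level. The expected share of nuclei with a UMI at 1000 UMIs was 3.41% and 2.54% in myeloid cells, and 0.0577% and 0.129% in adipocytes. The adipocyte shares lay under the 0.365% and 0.334% of lymphocytes, the latter from 2 UMIs, and no expression is read from them.

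Slc6a8 (chrX:73673133-73682502), which takes up creatine, was found at low levels, mainly in myeloid cells and ASPC. In the library labelled WT myeloid cells had 23.5 CPM (14.2 to 36.7, 19 UMIs) and ASPC 17.4 CPM (9.25 to 29.7, 13 UMIs), which did not differ beyond counting error. Myocytes labelled KO had 18.9 CPM (6.14 to 44.1) from 5 UMIs in 3 nuclei, ASPC 12.3 CPM (8.85 to 16.7, 41 UMIs) and myeloid cells 7.50 CPM (4.58 to 11.6, 20 UMIs). Adipocytes had 3.58 CPM (1.44 to 7.39, 7 UMIs) labelled WT and 1.39 CPM (0.717 to 2.42, 12 UMIs) labelled KO, or 0.206 times (0.0697 to 0.556) and 0.112 times (0.0538 to 0.218) the ASPC level. In the RefSeq annotation Slc6a8 overlaps Gm32261 and Atp2a1 overlaps Rabep2, and because the strand setting of the counting is not given in the sources used here, reads of these overlapping genes are uncertain.

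Alpl (chr4:137741731-137796384), the phosphatase of the creatine cycle, was close to the detection limit. The named classes held 13 UMIs labelled WT and 28 labelled KO. Adipocytes had 5 UMIs in each library, for 2.56 CPM (0.831 to 5.97) labelled WT and 0.578 CPM (0.188 to 1.35) labelled KO. Endothelial cells labelled WT had 24.1 CPM (6.57 to 61.8) from 4 UMIs in 2 nuclei. Mural cells labelled KO had 35.7 CPM (11.6 to 83.2) from 5 UMIs in 3 nuclei, and ASPC labelled KO had 4.21 CPM (2.30 to 7.07) from 14 UMIs.

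The 4 creatine members were too sparse for a reading of whether they share nuclei. In 1 random draw of 1000 UMIs per nucleus, a UMI of Ckb, Gatm, Slc6a8 or Alpl was found in 4 of 408 adipocytes, 27 of 261 ASPC and 33 of 327 myeloid cells labelled WT. In the library labelled KO the numbers were 5 of 890 adipocytes, 29 of 764 ASPC and 47 of 765 myeloid cells. UMIs of at least 2 of the 4 genes were found in 1 ASPC of each library and in 0 adipocytes, which allows a share of up to 0.735% of adipocytes labelled WT and 0.337% of those labelled KO. The product of shares gave under 1 nucleus for every pair of Ckb, Gatm and Slc6a8 in these classes, with 0.536 for Ckb and Slc6a8 in ASPC labelled WT as the highest. Of the calcium members in the same draw, Atp2a2 and Ryr2 were found together in 3 adipocytes labelled WT and 4 labelled KO, where the product of their shares gives 1.62 and 2.61 nuclei.

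Against all other named classes pooled, 1 of 8 members was higher in adipocytes beyond counting error in each library, and it was Ryr2 in both. The ratio was 3.42 (1.93 to 6.21) labelled WT and 18.1 (10.99 to 32.0) labelled KO. Of all genes with at least 50 UMIs, 17.3% were higher in adipocytes labelled WT and 25.1% in adipocytes labelled KO. Lower in adipocytes were 5 members labelled WT, namely Atp2a2, Atp2a3, Ckb, Gatm and Slc6a8, and 6 labelled KO, namely Atp2a1, Atp2a2, Ckb, Gatm, Slc6a8 and Alpl. The background for lower was 53.5% labelled WT and 53.3% labelled KO. These shares cover only genes with at least 50 UMIs, which 4 of the 8 members reached labelled WT and 7 labelled KO, so the counts of members are not set against them. The pooled classes are mostly lymphocytes labelled WT and mostly ASPC and myeloid cells labelled KO. The pooled Atp2a3 ratio was 0.224 (0.165 to 0.298) labelled WT and 1.12 (0.806 to 1.56) labelled KO. Class by class it was 1.81 (0.934 to 3.85) and 8.93 (3.37 to 33.5) against ASPC, and 0.581 (0.374 to 0.912) and 1.06 (0.686 to 1.70) against myeloid cells. Of the 37 Atp2a3 UMIs of myeloid cells labelled WT, 22 lay in cluster 13 (89 nuclei, 124 CPM), which had the cell division genes Top2a and Mki67 among its leading genes. Without that cluster, a setting chosen after seeing the data, the ratios to myeloid cells were 1.12 (0.620 to 2.14) and 1.25 (0.778 to 2.09), both within counting error.

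**Figure D2:**
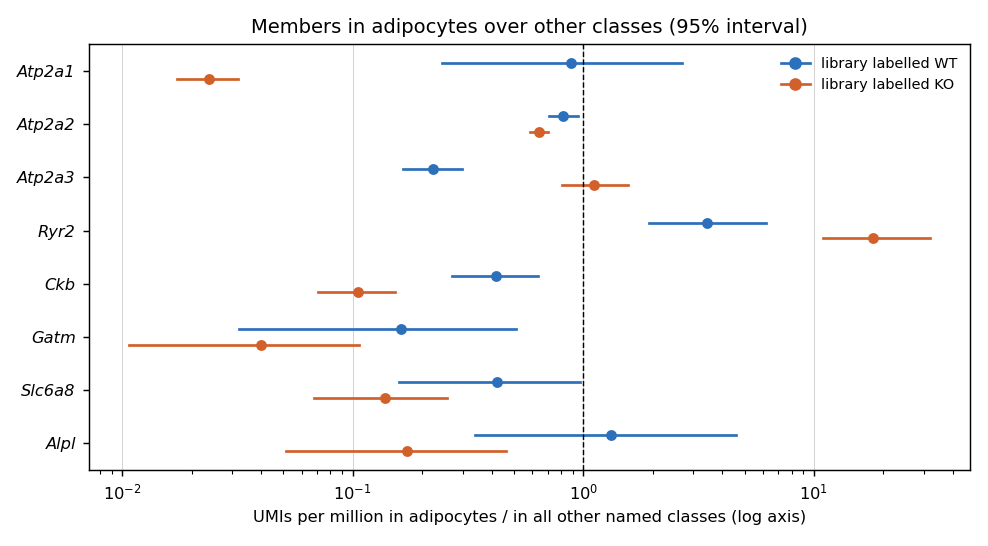
For each member the level in adipocytes over the level in all other named classes is plotted on a log axis, with the 95% conditional binomial interval, in blue for the library labelled WT and orange for the library labelled KO. Ryr2 lies right of the dashed line of equal levels in both libraries, at 3.42 and 18.1, and Ckb, Gatm, Slc6a8 and Atp2a2 lie left of it in both.

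The study compared Lexis WT with Lexis KO, so adipocyte levels were set side by side between libraries, as a comparison of 2 libraries and not of conditions. The adipocytes labelled WT were all of cluster 4 (418 nuclei) and those labelled KO were nearly all of cluster 1 (890 of 895 nuclei). Ryr2 was higher labelled KO by a ratio of 2.42 (1.70 to 3.55). Atp2a2 at 0.834 (0.726 to 0.962), Atp2a3 at 0.404 (0.284 to 0.578), Ckb at 0.266 (0.156 to 0.457) and Alpl at 0.226 (0.0519 to 0.981, 5 UMIs against 5) were lower. Atp2a1 at 2.08 (0.828 to 6.70), Gatm at 0.301 (0.0509 to 2.05) and Slc6a8 at 0.387 (0.140 to 1.16) stayed within counting error. Among 11359 genes with at least 50 UMIs, 36.3% were higher labelled KO and 35.2% were lower, so differences of this kind between the 2 libraries were common. With TMM scaling over all genes the log2 ratio of Atp2a2 turned from -0.26 to 0.03 and its call was lost. The use of all genes was chosen after seeing the data. It shifted all log2 ratios by 0.29, against 0.04 over genes with at least 50 counts and -0.36 with at least 500. The call of Alpl was also lost with TMM scaling, with each library clustered on its own, at a minimum of 1000 genes and at an mt- limit of 1%.

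The library ratio of a gene moved with its intronic length. In adipocytes the median log2 ratio, labelled KO over labelled WT, was -0.91 for genes with up to 3000 bases of intron, -0.60 from 3000 to 10000, -0.19 from 10000 to 30000, 0.38 from 30000 to 100000 and 1.41 for longer genes. Ryr2 has 535652 intronic bases and a log2 ratio of 1.28. Long genes as a class were higher labelled KO. Of 1424 genes with over 100000 intronic bases 77.2% were higher labelled KO, and 62.9% were at least 2 times higher. After subtraction of the median of its length bin the log2 ratio of Ryr2 was -0.14 (-0.65 to 0.42). Ckb, with 1506 intronic bases, went from -1.91 to -0.9995 (-1.77 to -0.22), Atp2a3 from -1.31 to -1.12 (-1.63 to -0.60) and Atp2a2 from -0.26 to -0.64 (-0.85 to -0.44). Beside Atp2a3 the lymphocyte markers summed to 312 CPM in adipocytes labelled WT and 17.6 CPM in those labelled KO, with 12 of 12 markers found in both, and beside Ckb the ASPC markers summed to 1203 and 497 CPM with 10 of 10 found in both. The part of these transcripts in the library ratios was not tested.

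**Figure D3:**
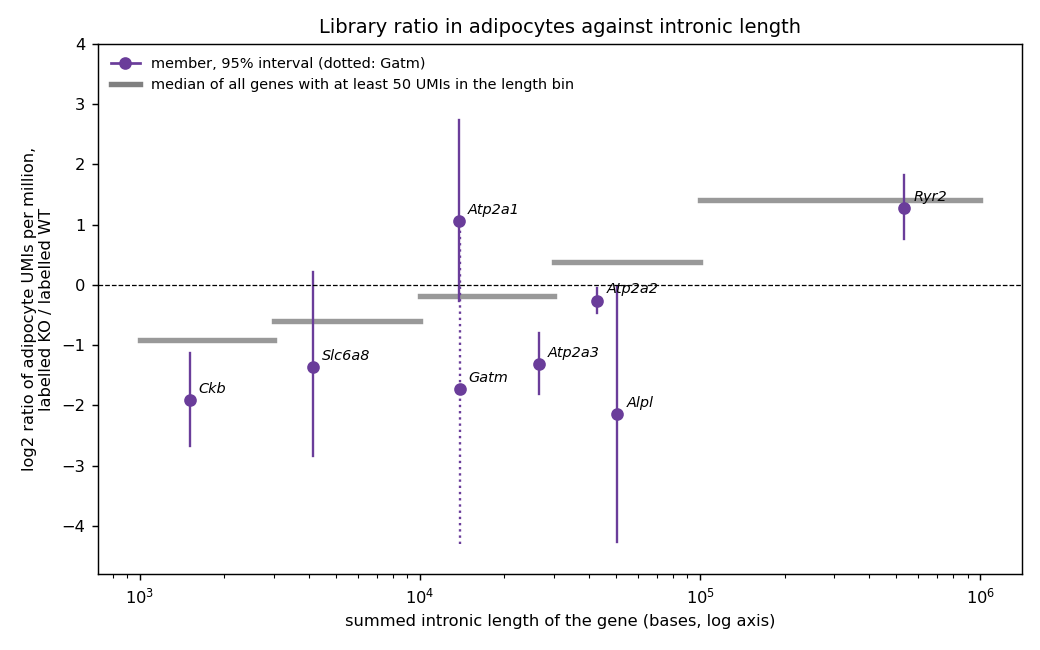
The log2 ratio of adipocyte levels, labelled KO over labelled WT, is plotted against the summed intronic length of the gene on a log axis. Purple points with 95% intervals are the members, and grey bars are the medians of all genes with at least 50 UMIs in a length bin, the lowest bin drawn from 1000 bases and the highest up to 1000000. Ryr2, at 1.28, lies on the bar of its bin at 1.41, and the intervals of Atp2a2, Atp2a3, Ckb and Alpl lie below theirs.

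The share of adipocytes with a UMI shows how depth enters. Without thinning, Ryr2 was found in 7.18% of adipocytes labelled WT and 14.97% of those labelled KO, and Atp2a2 in 40.2% and 51.5%. In the draw of 1000 UMIs per nucleus, which kept 408 of 418 and 890 of 895 adipocytes, the Ryr2 shares were 2.94% and 3.03%, a difference of 0.0925 percentage points (-2.28 to 2.05). Over all draws the expected Ryr2 shares were 2.29% and 3.05%. In 1 draw of 500 UMIs the Ryr2 shares were 0.718% and 2.23%, a difference of 1.52 points (-0.0990 to 2.84) within counting error. The Ryr2 shares expected over all draws of 500 UMIs were 1.27% and 1.61%. In the draw of 1000 UMIs Atp2a2 was found in 13.5% of adipocytes labelled WT and 9.66% of those labelled KO. The difference was -3.82 points (-7.96 to -0.00403). Atp2a3 was found in 2.45% and 0.787%, a difference of -1.66 points (-3.73 to -0.149). The Atp2a2 interval ends next to 0. With the shares expected over all draws, 12.6% and 9.55%, the difference for Atp2a2 was within counting error. That for Atp2a3, 2.91% and 0.878%, was not. In the draw of 500 UMIs the difference was -1.10 points (-4.22 to 1.64) for Atp2a2. For Atp2a3 it was -1.12 points (-2.90 to 0.127), and both were within counting error.

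Outside adipocytes, Atp2a1 was higher labelled KO in ASPC and myeloid cells, and Atp2a3 was lower in both. Different clusters made up these classes in each library, so the ratios compare different sets of nuclei. ASPC were mostly cluster 8 labelled WT (294 of 299 nuclei) and clusters 5 and 6 labelled KO (382 and 374 of 787). Myeloid cells were mostly clusters 7 and 13 labelled WT (310 and 89 of 419) and clusters 3 and 9 labelled KO (526 and 244 of 813). The Atp2a1 ratio was in ASPC 8.56 (1.45 to 347, 38 UMIs against 1), in myeloid cells 7.57 (1.99 to 64.2) and in lymphocytes 14.6 (5.64 to 39.2). In lymphocytes 9 of the 12 UMIs labelled KO lay in 1 nucleus, and without it the ratio was 3.66 (0.638 to 14.7), within counting error. That class was also made of other clusters in each library, clusters 0 and 2 for 1251 and 761 of 2013 nuclei labelled WT, and clusters 14 and 17 for 63 and 31 of 103 labelled KO. The myocyte markers summed to 259 CPM labelled WT and 133 CPM labelled KO in ASPC, 734 and 147 CPM in myeloid cells, and 67.7 and 498 CPM in lymphocytes. Within that list the directions differed. Ttn had 179 UMIs labelled WT and 59 labelled KO in ASPC, and 573 and 62 in myeloid cells, while Acta1 had 0 and 156 in ASPC, and 1 and 143 in myeloid cells. Atp2a3 was lower labelled KO in ASPC at 0.0819 (0.0190 to 0.276), myeloid cells at 0.221 (0.129 to 0.373) and endothelial cells at 0.169 (0.0175 to 0.847), while in lymphocytes, at 0.679 (0.442 to 1.002), it stayed within counting error. Without cluster 13 the myeloid ratio was 0.362 (0.179 to 0.749). The lymphocyte markers summed to 441 CPM labelled WT and 8.12 CPM labelled KO in ASPC, 1197 and 384 CPM in myeloid cells, and 881 and 73.5 CPM in endothelial cells. The part of these transcripts in the ratios was not tested. Slc6a8 in myeloid cells at 0.319 (0.161 to 0.631), Ckb in ASPC at 0.603 (0.437 to 0.844) and Atp2a2 in lymphocytes at 0.562 (0.335 to 0.890) were also lower. Corrected for intronic length, Ckb in ASPC had a log2 ratio of -0.10 (-0.57 to 0.38) and Atp2a3 in endothelial cells one of -2.05 (-5.32 to 0.28), and both calls were lost. Other ratios were within counting error before the correction and lower after it. These were Atp2a2 in ASPC at -0.38 (-0.66 to -0.08) and in endothelial cells at -1.07 (-1.98 to -0.18). Ryr2 in ASPC did the same at -2.95 (-4.55 to -1.20, 10 UMIs against 6). Myeloid Gatm, at 0.841 (0.535 to 1.36), and myeloid Ckb, at 0.841 (0.569 to 1.27), stayed within counting error.

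Nuclei of adipocytes holding UMIs of any of Ucp1, Cidea and Ppargc1a, genes of the classical thermogenic programme, were compared with the other adipocytes in the draw of 1000 UMIs. There were 20 of 408 such nuclei labelled WT and 63 of 890 labelled KO. Atp2a2 was found in 5 of the 20 (25%, 8.66 to 49.1) against 50 of 388 (12.9%, 9.72 to 16.6) labelled WT. In the library labelled KO it was found in 3 of 63 (4.76%, 0.993 to 13.3) against 83 of 827 (10.0%, 8.07 to 12.3). Ryr2 was found in 1 of the 20 against 11 of 388 labelled WT, and in 0 of 63, which allows up to 4.76%, against 27 of 827 (3.26%, 2.16 to 4.71) labelled KO. At these numbers no difference was detectable for either gene. In adipocytes as a whole Ucp1 stood at 25.1 CPM (18.6 to 33.2) labelled WT and 8.21 CPM (6.41 to 10.3) labelled KO, with 27 of 49 and 60 of 71 UMIs in 3 nuclei. Cidea went the other way, with 8.70 CPM (5.07 to 13.9) labelled WT and 36.9 CPM (32.9 to 41.1) labelled KO, a ratio of 4.24 (2.60 to 7.36). Ppargc1a stood at 40.5 CPM (32.0 to 50.4) and 41.3 CPM (37.1 to 45.8), a ratio of 1.02 (0.797 to 1.32) within counting error, with 55 of the 357 UMIs labelled KO in 1 nucleus. Corrected for intronic length its log2 ratio was -1.38 (-1.74 to -1.01), lower labelled KO.

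The partners of the members were read from a list of 35 calcium and creatine genes, of which 34 have a row. Of 27 calcium genes, 17 labelled WT and 22 labelled KO had at least 50 UMIs in a class. Adipocytes were higher than the other classes for 3 of the 17 and lower for 13, and higher for 5 of the 22 and lower for 15. Over all genes with at least 50 UMIs the shares were 17.3% higher and 53.5% lower labelled WT, and 25.1% and 53.3% labelled KO. Adra1a in both libraries and Jph1 labelled WT passed the limit in a class only through adipocytes, where they then counted as higher. Labelled WT, Itpr3, Orai1 and Mcu passed it only through lymphocytes, and they then counted as lower in adipocytes. The shares over all genes use UMIs summed over the classes. Neither the counts of higher genes nor those of lower genes are therefore set against these shares. Of 7 creatine genes, 2 labelled WT and 5 labelled KO had that many UMIs, with 1 of 2 higher and 0 lower labelled WT, and 1 of 5 higher and 2 lower labelled KO. The creatine gene counted as higher was Adrb3 in both libraries, which is also an adipocyte marker used for naming, so that count was fixed by the naming. Labelled KO, 8 of the 22 calcium genes and 3 of the 5 creatine genes were highest in myocytes, and the share over all genes was 11.2%. Ryr1 passed the limit in a class only through myocytes, where it then counted as highest. These counts are therefore not set against that share. The leads of Stim1 (1.07, 0.819 to 1.39), Orai1 (1.10, 0.716 to 1.63) and Atp2c1 (1.13, 0.833 to 1.49) over the next class were within counting error.

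Among the calcium partners, adipocytes were the leading class for Adra1a and Atp2b4 in both libraries. Adra1a, the alpha-1A adrenergic receptor, which signals to calcium release, had 55.8 CPM labelled WT (109 UMIs) and 84.7 CPM labelled KO (733 UMIs) in adipocytes. This was 38.4 times (17.1 to 107) and 22.3 times (15.1 to 34.4) the level of the other classes pooled. Over the next class alone the lead was 9.02 (3.75 to 28.3, myeloid cells) labelled WT. Labelled KO it was 1.72 (1.002 to 3.25) over myocytes, which had 49.1 CPM from 13 UMIs. Atp2b4, a calcium pump of the plasma membrane, had 201 CPM and 259 CPM, 5.94 times (4.88 to 7.25) and 3.31 times (3.01 to 3.64) the level of the others pooled. Over the next class alone its lead was 2.64 (2.00 to 3.55, ASPC) labelled WT. Labelled KO it was 1.45 (1.06 to 2.05) over lymphocytes, which had 178 CPM from 39 UMIs. Itpr1, an inositol trisphosphate receptor and so another release channel, had 83.5 CPM in adipocytes labelled WT, 0.606 times (0.506 to 0.722) the others, and 216 CPM labelled KO, 1.53 times (1.41 to 1.65) the others. Its highest class was endothelial in both libraries, at 253 and 563 CPM. Labelled KO the lead over mural cells, at 514 CPM, was 1.10 (0.819 to 1.48), within counting error.

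Partners known from striated muscle were also found in adipocytes. Casq1, a calcium store protein of the sarcoplasmic reticulum, had 25 of its 26 UMIs labelled WT in adipocytes (12.8 CPM), where no myocyte was found. Labelled KO it had 26.8 CPM in adipocytes (232 UMIs), 835 CPM in myocytes and 4.81 CPM in ASPC. Jph1, which ties the reticulum to the surface membrane, had 26.1 CPM (51 UMIs) in adipocytes labelled WT, 15.4 times (6.96 to 40.2) the other classes. Labelled KO it had 78.8 CPM (682 UMIs) in adipocytes against 1433 CPM in myocytes and 85.6 CPM (12 UMIs) in mural cells. Casq1 and Jph1 were therefore above the other classes in adipocytes labelled WT. The myocyte markers summed to 25.1 CPM in those adipocytes (3 of 10 found, with Ttn at 17.9 CPM and Neb at 6.66 CPM) and to 80.6 CPM in adipocytes labelled KO (9 of 10 found), and their part in these levels was not tested. Ryr1, the release channel of skeletal muscle, had 0 UMIs in adipocytes labelled WT, 0.693 CPM (6 UMIs) in adipocytes labelled KO and 2884 CPM in myocytes. Pln, a SERCA inhibitor, had 5.63 CPM (11 UMIs) and 5.89 CPM (51 UMIs) in adipocytes and 136 CPM in myocytes. It also had 5.34 CPM (4 UMIs) in ASPC labelled WT and 28.5 CPM (4 UMIs) in mural cells labelled KO. Sln, another SERCA inhibitor, had 0 UMIs in every class of both libraries.

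Among the creatine partners, Adrb3, the beta-3 adrenergic receptor that starts the thermogenic response, had 954 CPM in adipocytes labelled WT and 580.5 CPM in those labelled KO, but it is also 1 of the 10 adipocyte markers used for naming. The log2 ratio of these levels was -0.72, and corrected for intronic length it turned to 0.19 (0.12 to 0.27). Gamt, which completes creatine synthesis, had 6.66 CPM (13 UMIs) and 8.55 CPM (74 UMIs) in adipocytes, and the ratios to the other classes of 1.37 (0.628 to 2.90) and 0.743 (0.533 to 1.03) stayed within counting error. Ckm, the muscle creatine kinase, had 0 UMIs in every class labelled WT, and labelled KO it had 1331 CPM in myocytes, 187 CPM in lymphocytes and 10.3 CPM in adipocytes (89 UMIs). Its adipocyte level labelled KO was 6.70 times the limit of 3 UMIs in adipocytes labelled WT. The lower interval end of its adipocyte ratio, labelled KO over labelled WT, was 5.33. Adipocytes had the lowest level among the classes labelled KO. Ckmt2, the mitochondrial creatine kinase of muscle, had 257 CPM in myocytes, 9.01 CPM (78 UMIs) in adipocytes, 0.903 CPM (3 UMIs) in ASPC and 0.750 CPM (2 UMIs) in myeloid cells labelled KO. Unlike Ckm it was thus higher in adipocytes than in ASPC and myeloid cells. Its adipocyte level labelled KO was 5.87 times the limit of 3 UMIs in adipocytes labelled WT, which held 0. The lower interval end of its adipocyte ratio, labelled KO over labelled WT, was 4.66. In the same adipocytes Acta1 had 0 UMIs labelled WT and 276 labelled KO, Tnnt3 0 and 94 and Myh4 0 and 61, while Ttn had 35 and 105, and the part of such transcripts in the levels of Ckm and Ckmt2 was not tested.

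**Figure D4:**
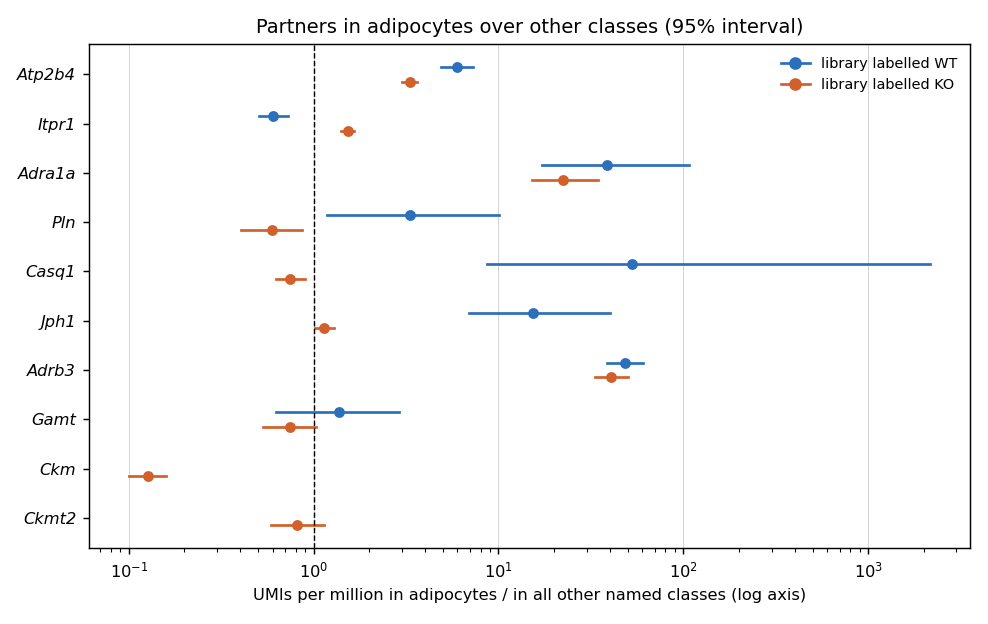
For each partner gene the level in adipocytes over the level in all other named classes is plotted on a log axis with the 95% interval, in blue for the library labelled WT and orange for the library labelled KO. Ratios with 0 UMIs on either side are not drawn. Adra1a, Adrb3 and Atp2b4 lie right of the dashed line of equal levels in both libraries, and Casq1 lies at 52.9 labelled WT and 0.748 labelled KO, where 52 myocytes are among the other classes.

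In adipocytes, 20 of the calcium genes had at least 50 UMIs over both libraries. Labelled KO 13 were higher and 5 lower beyond counting error, with a median log2 ratio of 0.82 against -0.02 over all 11359 genes. Over all those genes 36.3% were higher and 35.2% lower, and of those with over 100000 intronic bases 77.2% were higher. After the correction for intronic length the median was -0.12, with 7 higher and 7 lower. Casq1 kept a higher level labelled KO after correction, at a log2 ratio of 1.67 (1.07 to 2.32), as did Jph1 at 1.21 (0.80 to 1.65). Slc8a1 also stayed higher, at 1.98 (1.60 to 2.38), while Itpr1 at -0.04 (-0.27 to 0.20) did not. Adra1a turned from 0.60 to -0.81 (-1.10 to -0.51). The myocyte markers summed to 25.1 CPM in adipocytes labelled WT and 80.6 CPM in those labelled KO. Acta1 had 0 and 276 UMIs there, and the part of such transcripts in the ratios of Casq1 and Jph1 was not tested.

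Genes of like pattern were sought for members with at least 50 UMIs in a class of each library, over 12 class levels (5 labelled WT and 7 labelled KO) that share library and depth. For Atp2a2 the highest Pearson correlations of log2(CPM + 10) were with Ankrd27 (0.93), Flna (0.91) and Pfkp (0.90). For Atp2a3 they were with Esyt1 (0.96), Upf3b (0.95) and Chst3 (0.95), and for Ckb with Marcks (0.96), Rcn3 (0.94) and Nucb2 (0.93). These are descriptions over points that are not independent.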

How the data were processed

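Nuclei came from 2 libraries made with the 10x 3′ chemistry v3.1, 1 labelled WT and 1 labelled KO. Per the file headers the authors made the deposited UMI counts with Cell Ranger 6.1.1, and per the labels with the mouse build mm10 and Seurat 4. Whether intronic reads were counted, the strand setting and any removal of free RNA are not given in the sources used here. Deposited matrices held 31053 genes by 5000 barcodes, with 9376351 UMIs labelled WT and 19655049 labelled KO.

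Barcodes with at least 500 genes and at most 5% of UMIs from mt- genes were kept. Scrublet (scanpy 1.11.5) marked 92 of 2944 barcodes labelled KO and 0 of 3649 labelled WT, where it had not worked, so the 146 barcodes with the top 4% of scores were removed there. Libraries were merged and clustered in Seurat 5.3.0 (2000 variable genes, 20 components, resolution 0.5), with the members and the pathway list left out of the variable genes. A cluster took a class name with at least 3 passing markers (5% of nuclei, 2 times the mean CPM of the other clusters), a lead of 3 over the next class, and no class with more markers among its top 10 genes by fold (after adding 1 CPM, genes in at least 10% of nuclei). Counts were summed per class and library and given as CPM with exact Poisson intervals. Ratios had conditional binomial intervals, shares Clopper-Pearson intervals, all at 95% and for counting error only. The limit for a count of 0 was 3 counts. Genes needed 50 UMIs to enter a background. Intronic lengths came from an older annotation (GENCODE M1), matched by identifier for 23006 genes (74.1%), and 8 of 8 members had one. The interval code was tested on simulated data.

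The text names the members in every class and up to 12 pathway genes with the most UMIs or a role as partner of a member. The members, the gene lists and the naming rule were chosen with earlier results of these data known. Alternatives tried were other scalings, an intronic length correction, doublets kept, other filters, resolutions and naming leads, separate clustering, and other thinning depths.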

Additional observations from a re-analysis of the deposited data

Results flagged for a closer look

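The 4 values below come from the 2 clusters that no marker list named and that the comparisons between classes did not use. They were picked out because the level there was above that of every compared class of the same library.

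Cluster 11 held 149 nuclei, all labelled WT, and Ccl19 and Ccl21a, chemokines of lymphoid stroma, were among its leading genes. Atp2a2 stood there at 182.9 CPM (52 UMIs, 137 to 240), against 165 CPM (138 to 195) in myeloid cells, and the intervals overlap. Alpl stood there at 24.6 CPM (7 UMIs, 9.90 to 50.7), against 24.1 CPM from 4 UMIs in endothelial cells.

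Cluster 12 held 102 nuclei labelled WT and 36 labelled KO, and Clec9a and Xcr1, genes known from cross-presenting dendritic cells, were among its leading genes. In its nuclei labelled KO Ckb stood at 104.7 CPM (11 UMIs, 52.2 to 187), against 42.7 CPM in ASPC. Gatm stood there at 57.1 CPM (6 UMIs, 21.0 to 124), against 28.1 CPM in myeloid cells. In its nuclei labelled WT the levels were 43.9 CPM for Ckb (11 UMIs) and 11.96 CPM for Gatm (3 UMIs).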

How the results depend on the processing

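With 1 library per genotype, no replicate could be left out. No paired analysis was possible because each genotype had 1 library. Of the alternative counts 68 stayed within 1.5 times the main count and 9 did not. The count of members higher in adipocytes labelled KO (main 1, Ryr2) was 2 with TMM scaling (Atp2a1 and Ryr2) and 0 after the correction for intronic length, and the count lower (main 4) was 2 with TMM scaling (Atp2a3 and Ckb). Members higher in adipocytes than in other classes labelled KO (main 1) were 2 with each library clustered on its own, which added Atp2a3, and members lower labelled WT (main 5) were 3 at an mt- limit of 1% (Atp2a3, Ckb and Gatm). Members highest in adipocytes (main 1 in each library) were 2 labelled KO at the mt- limit of 1%, with Atp2a3, and 2 labelled WT at a minimum of 1000 genes, with Atp2a1. The share of nuclei differed between libraries for 2 members in the main draw, for 0 in the draw of 500 UMIs and for 1 over all draws of 1000 UMIs. The log2 ratio labelled KO over WT turned for Atp2a2 with TMM scaling (0.031, from -0.26) and for Ryr2 with the correction for intronic length (-0.14, from 1.28), since the genes of its length bin had a median of 1.41. TMM scaling depended on the genes it used, and its shift of all log2 ratios was 0.29 over all genes, 0.16 with at least 10 counts, 0.12 with 20, 0.04 with 50, -0.03 with 100 and -0.36 with 500. The use of all genes and of 50 counts, and the share over all draws, were chosen after seeing the data. Without 1 nucleus, left out after seeing the data, the log2 ratio of Atp2a1 in lymphocytes was 1.87, from 3.87, and without cluster 13, also left out after seeing the data, that of Atp2a3 in adipocytes over myeloid cells labelled WT turned from -0.78 to 0.16. Of the alternative values of single members 214 kept within the counting interval, 11 left it without a turn of a called direction and 3 turned. Gatm, Slc6a8 and Alpl had 3 to 12 UMIs in adipocytes, so their levels there had wide counting intervals.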

Other observations

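Barcodes outside the filter also held UMIs of the members. The 1351 such barcodes labelled WT had 70.1 CPM of Atp2a3 (59.7 to 81.7), 45.9 CPM of Ckb (37.5 to 55.5) and 1.73 CPM of Ryr2 (0.471 to 4.43). The 2056 such barcodes labelled KO had 48.2 CPM of Atp2a1 (40.7 to 56.7), 16.8 CPM of Atp2a3 (12.5 to 22.1), 41.3 CPM of Ckb (34.3 to 49.2) and 7.92 CPM of Ryr2 (5.08 to 11.8). The Atp2a1 level labelled KO was thus above that of adipocytes, ASPC and myeloid cells among the kept nuclei, and the Ryr2 level was below that of adipocytes in both libraries.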
